A study of Homo sapiens with 8 samples.

Results

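The genes for SR proteins, heterogeneous nuclear ribonucleoproteins (hnRNPs) and numbered RNA-binding motif (RBM) proteins were followed in HCT116, an established human colorectal carcinoma line, under 3 histone deacetylase inhibitors. Members were all genes whose array annotation gives exactly 1 symbol starting with SRSF, HNRNP or RBM plus a number or letter. Where a gene has several probe sets, the brightest by mean level represents it. A gene was kept when its second-highest array value reached the median of the deposited table, 4.49 on the log2 scale. The pattern matched 66 genes, and 61 of them passed, of 13381 genes tested in all: 9 SR protein genes, 19 hnRNP genes and 33 RBM genes. The genes left below the threshold were HNRNPA3P1, RBM11, RBM34, RBM46 and SRSF12, with second-highest values from 2.43 to 3.66. RBM34 lay nearest outside the threshold at 3.66, and RBM20 nearest inside it at 5.12. SRSF2 has no probe set with a single symbol and was not analysed here.

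All cultures were HCT116 and were exposed for 10 h. Largazole, a cyclic depsipeptide with a thioester, was given at 20 nM. FK228 (romidepsin), a bicyclic depsipeptide with a disulfide, was also given at 20 nM, while SAHA (vorinostat) is a hydroxamic acid and was used at 2 µM. The controls received vehicle, and every group held 2 Affymetrix U133 2.0 arrays. The comparisons ask which of these RNA-processing genes each inhibitor changed against vehicle, and where the depsipeptides differed at their shared dose. SAHA was tested against vehicle only, and its values stand beside those of the depsipeptides without a test between them, since its dose differs.

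SR proteins carry RNA recognition motifs and a domain rich in arginine-serine repeats. They bind exonic enhancers, recruit the spliceosome to nearby splice sites, and also act in RNA export and translation. The hnRNP proteins coat nascent transcripts and often oppose SR proteins at splice sites, with further roles in RNA stability and transport. RBM genes share a name for their RNA-binding motif and not a single function. They include spliceosome subunits, splicing regulators, a subunit of the exon junction complex and proteins that bind messenger RNA in the cytoplasm.

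The 8 arrays had medians of 4.47 to 4.51 on the log2 scale, and replicate arrays correlated at 0.9953 to 0.9970 over 54613 probe sets. Of 10 epithelial and colon markers, 9 passed the threshold (LGALS4 did not). Of 10 leukocyte markers only ITGAM passed, and of 10 fibroblast and endothelial markers 5 passed. The summed log2 level of the epithelial list was 85.02 to 85.87 on vehicle arrays and 82.94 to 84.06 on FK228 arrays; its part in the results below was not tested. The labels describe duplicates without saying whether they were separate cultures, so p-values measure the spread between these samples, which may be technical. The arrays compare equal amounts of RNA from bulk cultures, so fewer cells of a kind and less RNA per cell cannot be told apart.

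Members fell more often than they rose with each inhibitor. In the text, a difference is the compound's mean minus the reference mean on the log2 scale, and it is called when limma's Benjamini-Hochberg adjusted p, taken over all tested probe sets, is under 0.05. With largazole 28 of 61 members fell and 6 rose, against 23.2% lower and 21.9% higher among all tested genes. SAHA lowered 32 members and raised 4, against 25.2% and 22.1% of all genes. FK228 lowered 34 and raised 5, against 27.1% and 25.7%. The members' median difference was -0.24 with largazole, -0.29 with SAHA and -0.34 with FK228, where the medians of all tested genes were 0.00, -0.02 and 0.01. Most shifts were small: 3, 4 and 7 members were lower by 2-fold or more with largazole, SAHA and FK228, and 0 were higher by 2-fold. The counts of rises rested on few arrays: the 6 with largazole became 2 without either largazole array and 3 without vehicle replicate 1, and the 4 with SAHA became 2 without either SAHA array. These 3 comparisons share their vehicle arrays.

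The families differed in the makeup of their calls. Among the SR protein genes 7 of 9 fell with largazole, 7 with SAHA and 6 with FK228, and 0 rose. Of the 19 hnRNP genes 9, 11 and 12 fell in the same order, and again 0 rose. Of the 33 RBM genes, which have no shared function, 12, 14 and 16 fell, while 6, 4 and 5 rose. These rises, at 18.2%, 12.1% and 15.2%, lay below the 21.9%, 22.1% and 25.7% of all tested genes. Their falls, at 36.4%, 42.4% and 48.5%, lay above the 23.2%, 25.2% and 27.1% of all tested genes. At an unadjusted p under 0.05 by limma, 8 members were higher and 31 lower than vehicle with largazole (25.5% and 26.7% of all genes). The counts were 4 and 34 with SAHA (25.5% and 28.6%) and 5 and 36 with FK228 (28.6% and 29.6%). None of the higher ones was an SR protein or hnRNP gene: both families had 0 at this threshold with each compound, counted by the probe set that stands for each gene. Whether the families differ from each other was not tested.

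**Figure D1:**
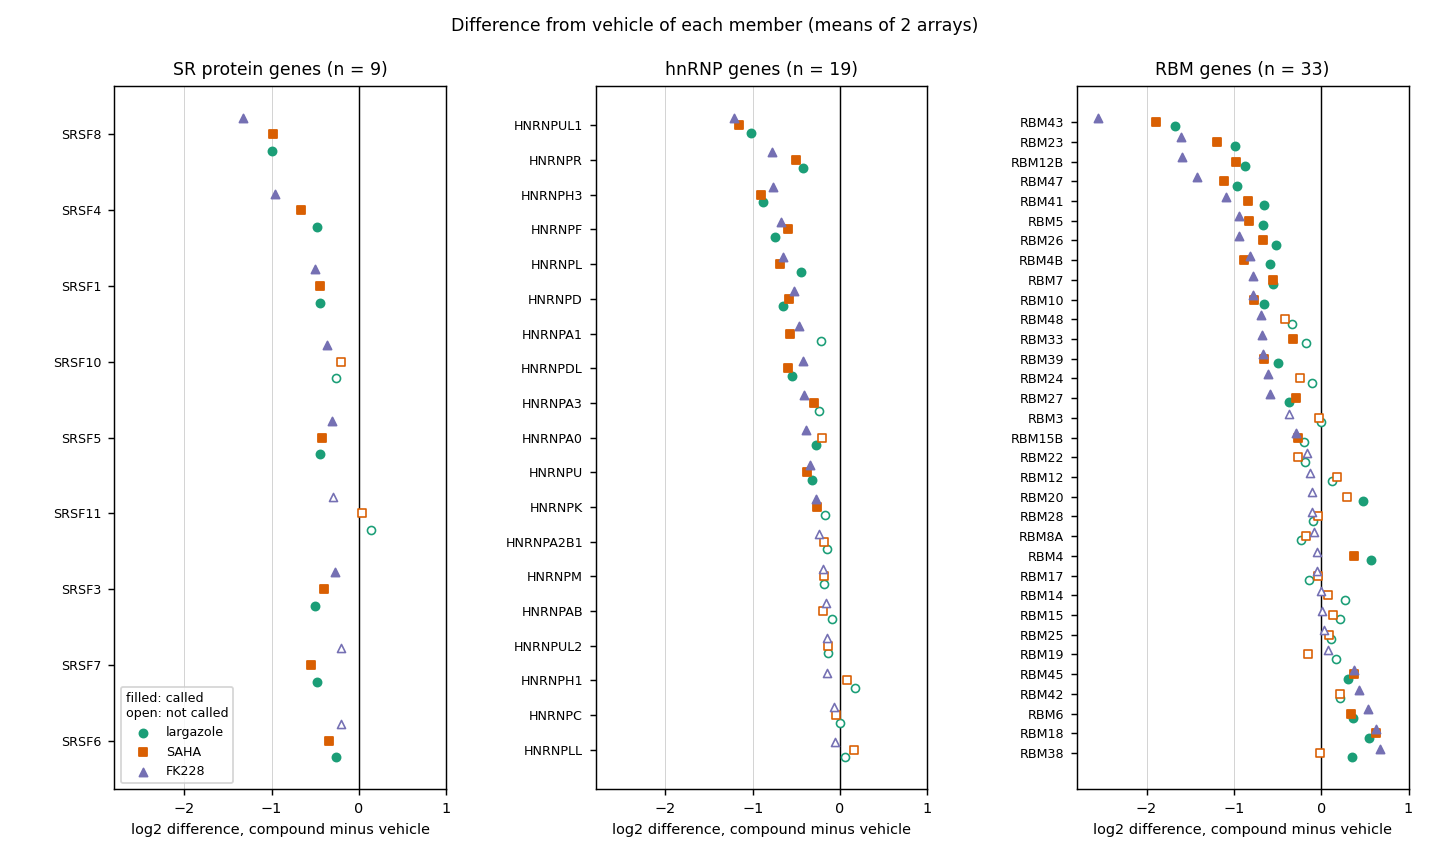
Each row is a member, and each symbol is the difference between the means of 2 treated and 2 vehicle arrays (x axis, log2) for largazole (circles), SAHA (squares) or FK228 (triangles), filled where called. In the SR and hnRNP panels every filled symbol lies left of 0, down to -1.33 for SRSF8 and -1.22 for HNRNPUL1, while the RBM panel runs from -2.56 (RBM43) to 0.67 (RBM38).

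SRSF8, a retrogene-derived relative of SRSF2, showed the largest fall among the SR protein genes. Its vehicle arrays read 10.21 and 10.01, those of largazole 9.21 and 9.0, those of SAHA 9.04 and 9.22, and those of FK228 9.08 and 8.49. No treated array reached either vehicle array, and the FK228 replicates lay furthest apart. The differences were -1.0 (SE 0.187, adjusted p 0.00372 by limma), -0.98 (0.00383) and -1.33 (6.73e-04), that is 2.01-fold, 1.97-fold and 2.51-fold lower. All 4 tested SRSF8 probe sets fell with each compound, and the lowest FK228 difference among them was -2.13.

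SRSF4, an SR protein with a long arginine-serine domain, read 10.21 and 10.19 with vehicle, 9.71 and 9.73 with largazole, 9.49 and 9.60 with SAHA, and 9.20 and 9.29 with FK228. The groups did not overlap, and the lowest values were those of FK228. Its differences from vehicle were -0.48, -0.66 and -0.96 (adjusted p 0.00259, 4.89e-04 and 5.53e-05 by limma). The other tested SRSF4 probe set did not show this order: it gave -0.44, -0.22 and -0.44, and was not called with SAHA. Its difference of FK228 from largazole was 0.00.

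SRSF1, the prototype SR protein and a regulator of splice site choice, fell by similar amounts with each inhibitor. Vehicle arrays gave 12.36 and 12.35, largazole arrays 11.98 and 11.82, SAHA arrays 11.95 and 11.85, and both FK228 arrays 11.85. The fitted differences were -0.45, -0.45 and -0.50 (SE 0.0888), or 1.37-fold, 1.37-fold and 1.41-fold lower. Of its 6 probe sets, 1 missed the test with largazole (-0.20, adjusted p 0.135 by limma), and all 6 fell with SAHA and with FK228.

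SRSF3, the smallest SR protein, which also acts in mRNA export, had the opposite order of means. It read 12.46 and 12.36 with vehicle, 11.93 and 11.90 with largazole, 12.04 and 11.99 with SAHA, and 12.16 and 12.13 with FK228. Differences from vehicle were -0.50, -0.40 and -0.27. The last of these had an adjusted p of 0.0245 in limma's fit, and 0.0671 without FK228 replicate 1, 0.0936 without FK228 replicate 2 and 0.129 without vehicle replicate 1. SRSF7, another export adaptor, resembled it, with called differences of -0.48 and -0.55 for largazole and SAHA and -0.21 (adjusted p 0.11 by limma) for FK228.

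SRSF5 fell by 0.44, 0.42 and 0.31 on the log2 scale with largazole, SAHA and FK228. Its FK228 call ended without FK228 replicate 1 (adjusted p 0.0633) or vehicle replicate 2 (0.078) in limma's fit. SRSF6 fell by 0.26 with largazole and 0.34 with SAHA and was at -0.21 with FK228 (adjusted p 0.0529 by limma). The largazole call for SRSF6 ended without any 1 of the 4 arrays compared (adjusted p 0.0967 to 0.129). SRSF10, whose splicing activity depends on its phosphorylation, was called with FK228 only at -0.37 (adjusted p 0.023 by limma), against -0.26 and -0.20 with largazole and SAHA. That call was lost on removing vehicle replicate 1 (adjusted p 0.116) or either FK228 array (0.061 and 0.0868). SRSF11 was not called with any compound (0.14, 0.04 and -0.30), and its replicate 1 array was higher than replicate 2 in all 4 groups, by up to 0.47.

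HNRNPUL1, a relative of HNRNPU with a role in the response to DNA breaks, had the largest fall of the hnRNP genes. Vehicle arrays read 9.77 and 9.73, largazole arrays 8.69 and 8.75, SAHA arrays 8.55 and 8.63, and FK228 arrays 8.50 and 8.55. Every treated array lay about 1 log2 unit or more below both vehicle arrays, a gap far wider than that between replicates. The differences were -1.02, -1.16 and -1.22 (SE 0.0804, adjusted p 6.35e-05, 3.35e-05 and 1.56e-05 by limma). Its other tested probe set fell as well, by 0.88, 0.95 and 1.37 on the log2 scale.

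HNRNPH3 and HNRNPF belong to the hnRNP H/F group, which binds runs of guanines. HNRNPH3 read 10.08 and 9.89 with vehicle, 9.14 and 9.07 with largazole, 9.21 and 8.97 with SAHA, and 9.30 and 9.13 with FK228. The vehicle arrays stood apart from all 6 treated arrays, with differences of -0.88, -0.90 and -0.77. With the mean of its 4 probe sets they were -0.56, -0.57 and -0.47, still called. HNRNPF fell by 0.74, 0.60 and 0.68 on the log2 scale. HNRNPH1, the best known of the group, was not called with any compound (0.17, 0.08 and -0.15).

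HNRNPL, which binds CA repeats, read 12.01 and 11.99 with vehicle, 11.55 and 11.56 with largazole, 11.31 and 11.33 with SAHA, and 11.30 and 11.40 with FK228. The 4 arrays of SAHA and FK228 lay below both largazole arrays. Differences from vehicle were -0.45, -0.69 and -0.65 (adjusted p 0.00287, 3.36e-04 and 3.15e-04 by limma). Its paralog HNRNPLL was not called through its main probe set (0.06, 0.16 and -0.06). Of its 4 tested probe sets, 1 was called higher with largazole and 1 with SAHA, where the highest differences were 0.48 and 0.40.

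HNRNPA1, an abundant splicing repressor, was called with SAHA and FK228 but not with largazole. Its arrays read 11.94 and 11.92 with vehicle, 11.69 and 11.74 with largazole, 11.26 and 11.46 with SAHA, and 11.47 and 11.45 with FK228. The differences were -0.22 (adjusted p 0.0971 by limma), -0.57 (0.00157) and -0.47 (0.00359). A further HNRNPA1 probe set gave -0.03, -0.97 and -0.35, and another gave -0.27, -1.24 and -0.69. HNRNPA2B1, its close relative, was not called through its main probe set (-0.15, -0.18 and -0.24), whereas a second probe set fell by 0.50, 1.26 and 0.94 on the log2 scale.

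HNRNPR, a partner in RNA stability and transport, read 12.04 and 11.91 with vehicle, 11.57 and 11.52 with largazole, 11.47 and 11.48 with SAHA, and 11.22 and 11.18 with FK228. All groups were separate, with FK228 lowest. Its falls were 0.43, 0.50 and 0.78 on the log2 scale. The suffixes _x_at and _s_at mark probe sets that can match several transcripts. The HNRNPR probe set without such a suffix gave -0.29 for SAHA (adjusted p 0.0609 by limma) and -0.26 for FK228 (0.077).

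HNRNPD (AUF1), which speeds decay of AU-rich messenger RNAs, lies next to its paralog HNRNPDL in the RefSeq gene order (assembly GRCh38.p14), with 0 protein-coding genes between them. HNRNPD fell by 0.65, 0.59 and 0.53 and HNRNPDL by 0.55, 0.60 and 0.42 on the log2 scale. Both were called with all 3 inhibitors. Without probe sets named _x_at or _s_at, HNRNPD read -0.44, -0.35 and -0.30 and was no longer called (adjusted p 0.056, 0.115 and 0.155 by limma).

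HNRNPU, a nuclear matrix protein, fell by 0.32, 0.38 and 0.34 on the log2 scale, and by 0.96, 0.81 and 0.91 in another of its 5 probe sets. Its largazole call ended without largazole replicate 1 (adjusted p 0.0758 by limma) or vehicle replicate 1 (0.0584). HNRNPA0 fell with largazole (-0.27) and FK228 (-0.39), and HNRNPA3 with SAHA (-0.30) and FK228 (-0.41). The other 2 HNRNPA0 probe sets were not called (0.00 and -0.00 with largazole, -0.15 and 0.04 with FK228), and with the mean of all 3 the calls ended (-0.09 and -0.17, adjusted p 0.33 and 0.0738 by limma). The HNRNPA0 call for largazole ended without any 1 of the 4 arrays (adjusted p 0.0702 to 0.159 by limma). The HNRNPA3 call for SAHA ended without SAHA replicate 2, vehicle replicate 1 or vehicle replicate 2 (0.121, 0.0967 and 0.0906).

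HNRNPK, which binds C-rich RNA, was called at -0.26 with SAHA and -0.27 with FK228. The SAHA call ended without any 1 SAHA, vehicle or largazole array (adjusted p 0.0625 to 0.121 by limma), and the FK228 call without FK228 replicate 2 or either vehicle array (0.132, 0.0928 and 0.0821). HNRNPC, a core packaging protein, gave 12.47 and 12.48 with vehicle, 12.49 and 12.47 with largazole, 12.36 and 12.49 with SAHA, and 12.38 and 12.42 with FK228. Its intervals (95%) were -0.19 to 0.20, -0.24 to 0.14 and -0.26 to 0.12. HNRNPM, HNRNPAB and HNRNPUL2 were not called either, with differences from -0.20 to -0.09.

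**Figure D2:**
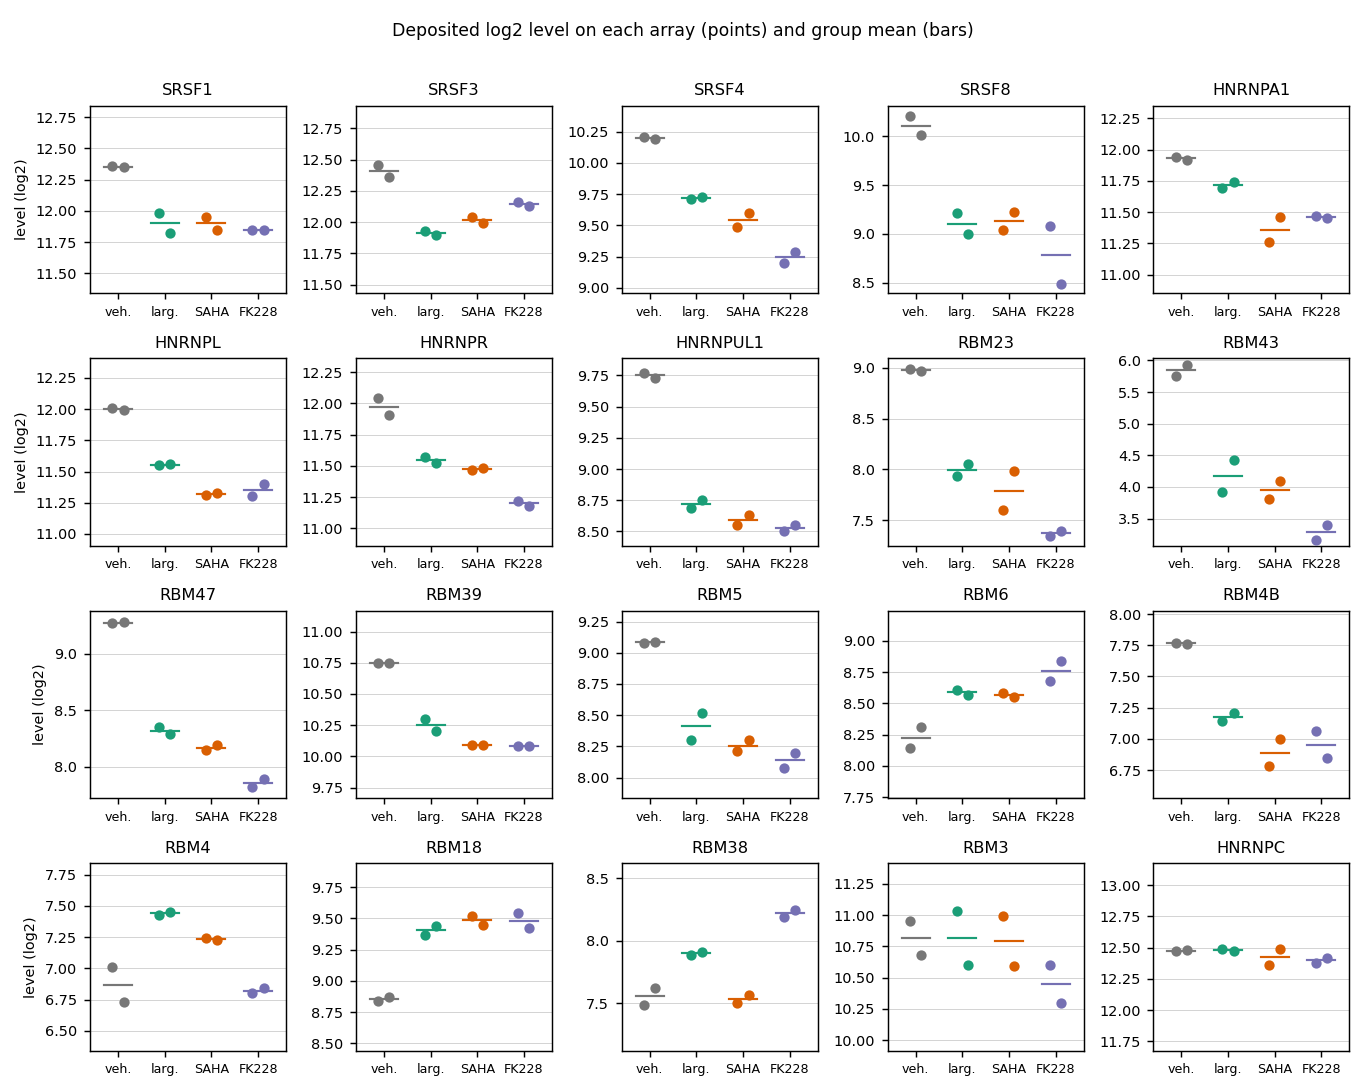
Deposited log2 level (y axis) of 20 members on each of the 8 arrays; points are arrays, short bars group means, and every panel has its own y range of at least 1.5 log2 units. SRSF1, HNRNPUL1, RBM47 and RBM39 show 6 treated arrays below both vehicle arrays, RBM18 and RBM6 the reverse, and HNRNPC has all 8 arrays between 12.36 and 12.49.

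The largest falls of all were among RBM genes. RBM43, named for its RNA-binding motif, read 5.76 and 5.93 with vehicle, 3.92 and 4.43 with largazole, 3.81 and 4.09 with SAHA, and 3.17 and 3.40 with FK228. The treated arrays lay below the 4.49 threshold, so these levels are near the bottom of the scale and the folds carry that limit. It was the only member with group means there (4.17, 3.95 and 3.29). RBM43 passed the filter through its vehicle arrays alone, so its fall is tied to its selection. With the stricter filter it could not be measured. The fitted differences were -1.67, -1.89 and -2.56 (SE 0.181), or 3.18-fold, 3.71-fold and 5.89-fold lower (adjusted p 2.78e-04, 1.34e-04 and 2.11e-05 by limma). Among the other members, by the probe sets that stand for them, the largest largazole fall was that of HNRNPUL1 (-1.02). With SAHA (-1.19) and FK228 (-1.61) it was that of RBM23.

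RBM23, a paralog of the splicing coactivator RBM39, read 8.99 and 8.97 with vehicle, 7.94 and 8.05 with largazole, 7.60 and 7.98 with SAHA, and 7.35 and 7.40 with FK228. Every treated array was lower, and the FK228 arrays were lowest. Differences were -0.99, -1.19 and -1.61, or 1.98-fold, 2.29-fold and 3.04-fold lower. RBM39 itself read 10.75 on both vehicle arrays, 10.30 and 10.20 with largazole, 10.09 on both SAHA arrays and 10.08 on both FK228 arrays. Its falls of 0.50, 0.66 and 0.67 were smaller than those of its other 2 probe sets, which ran from 0.87 to 1.31 on the log2 scale.

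RBM47, an RNA-binding cofactor of apolipoprotein B mRNA editing in epithelial cells, read 9.27 and 9.28 with vehicle, 8.35 and 8.29 with largazole, 8.15 and 8.19 with SAHA, and 7.82 and 7.89 with FK228. The 4 groups were fully separate. Differences were -0.96, -1.11 and -1.42 (SE 0.0786, adjusted p 7.65e-05, 3.69e-05 and 7.68e-06 by limma). Another RBM47 probe set was not called (-0.28, -0.17 and -0.10).

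RBM12B gave 7.97 and 7.75 with vehicle, 7.02 and 6.97 with largazole, 7.07 and 6.69 with SAHA, and 6.12 and 6.40 with FK228. Its differences of -0.87, -0.98 and -1.60 passed the test, and the FK228 arrays lay below all others. RBM41, a protein of the minor spliceosome, fell by 0.65, 0.84 and 1.09 on the log2 scale, and its largazole difference was -0.43 without largazole replicate 2. RBM26, linked to nuclear RNA decay, fell by 0.52, 0.67 and 0.94, and its paralog RBM27 by 0.37, 0.29 and 0.59. The other RBM27 probe set was positive and uncalled with each compound (0.09, 0.23 and 0.17), and with the mean of both the calls ended (-0.14, -0.03 and -0.21, adjusted p 0.238, 0.825 and 0.0799 by limma). The largazole call for RBM26 ended without largazole replicate 2 or vehicle replicate 1 (adjusted p 0.109 each by limma).

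RBM5 and RBM10, paralogous splicing regulators, both fell with every inhibitor. RBM5 read 9.08 and 9.09 with vehicle, 8.30 and 8.52 with largazole, 8.21 and 8.30 with SAHA, and 8.08 and 8.20 with FK228. Differences were -0.67, -0.83 and -0.94 for RBM5 and -0.66, -0.77 and -0.78 for RBM10, all called. Their paralog RBM6 rose.

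RBM6 read 8.14 and 8.31 with vehicle, 8.61 and 8.57 with largazole, 8.58 and 8.55 with SAHA, and 8.68 and 8.84 with FK228. All 6 treated arrays exceeded both vehicle arrays. The rises of 0.36, 0.34 and 0.54 gave adjusted p of 0.0196, 0.0231 and 0.0024 in limma's fit. The largazole call ended without largazole replicate 1, largazole replicate 2 or vehicle replicate 1 (0.0968, 0.0698 and 0.116). The SAHA call ended without SAHA replicate 1, SAHA replicate 2 or vehicle replicate 1 (0.0886, 0.0637 and 0.134).

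RBM5 and RBM6 are neighbours in the RefSeq gene order, on the same strand with 0 protein-coding genes between them. A second neighbouring pair also moved in opposite directions, with largazole and SAHA only. In this pair RBM4, a splicing and translation regulator, and RBM4B, its near copy, lie tail to tail on opposite strands. RBM4 read 7.01 and 6.73 with vehicle, 7.43 and 7.45 with largazole, 7.24 and 7.23 with SAHA, and 6.80 and 6.84 with FK228. It rose by 0.57 with largazole and 0.37 with SAHA, and was at -0.05 with FK228 (adjusted p 0.736 by limma), whose arrays lay within the vehicle range. The SAHA call ended without SAHA replicate 1, SAHA replicate 2 or vehicle replicate 2 (adjusted p 0.0778, 0.0694 and 0.124), and the difference was 0.23 without the last of these. RBM4B read 7.77 and 7.76 with vehicle, 7.14 and 7.21 with largazole, 6.78 and 7.0 with SAHA, and 7.06 and 6.85 with FK228. RBM4B fell by 0.59, 0.88 and 0.81 on the log2 scale. RBM6, RBM4 and RBM4B were each tested through 1 probe set, and that of RBM4B is an _s_at set. Probe sets that the annotation gives to RBM4 together with a readthrough transcript were left out, and array signals of near-identical copies may be shared.

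The 250 bases before the start of these 4 genes are shown because each pair lies side by side and moved apart; they were chosen after the values were seen. Sequences are from RefSeq (GRCh38.p14), 5′ to 3′ on the gene's strand. Capitals mark the motifs searched on both strands: the GC box GGGCGG, the CCAAT box CCAAT, the ETS site CCGGAAG, the E-box CACGTG and the TATA box TATAAA. RBM6 lies on the plus strand at chr3:49939900-49940149, RBM5 on the plus strand at chr3:50088669-50088918, RBM4 on the plus strand at chr11:66638453-66638702 and RBM4B on the minus strand at chr11:66677888-66678137.
RBM6: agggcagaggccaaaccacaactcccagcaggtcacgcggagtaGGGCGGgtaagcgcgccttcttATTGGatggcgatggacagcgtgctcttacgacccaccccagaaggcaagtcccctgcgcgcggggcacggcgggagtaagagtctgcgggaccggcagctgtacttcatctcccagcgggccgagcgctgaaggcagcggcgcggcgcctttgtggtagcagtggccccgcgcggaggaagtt
RBM5: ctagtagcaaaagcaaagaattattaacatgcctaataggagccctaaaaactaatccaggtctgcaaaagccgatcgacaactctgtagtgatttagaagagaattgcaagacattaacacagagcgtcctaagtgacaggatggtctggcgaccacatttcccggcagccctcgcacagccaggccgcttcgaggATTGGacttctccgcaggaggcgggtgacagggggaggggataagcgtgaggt
RBM4: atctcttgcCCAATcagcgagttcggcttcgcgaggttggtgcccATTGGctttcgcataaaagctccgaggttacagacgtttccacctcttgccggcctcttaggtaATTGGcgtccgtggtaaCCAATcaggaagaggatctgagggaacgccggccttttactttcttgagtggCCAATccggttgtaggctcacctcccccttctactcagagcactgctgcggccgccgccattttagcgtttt
RBM4B: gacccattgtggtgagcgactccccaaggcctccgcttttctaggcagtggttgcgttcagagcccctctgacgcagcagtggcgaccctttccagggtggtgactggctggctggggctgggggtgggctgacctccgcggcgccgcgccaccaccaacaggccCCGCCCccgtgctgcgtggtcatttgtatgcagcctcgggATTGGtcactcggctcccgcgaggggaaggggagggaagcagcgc
The RBM4 window holds 5 CCAAT boxes and 0 GC boxes, whereas those of RBM6 and RBM4B hold 1 of each and that of RBM5 holds 1 CCAAT box and 0 GC boxes. GC content was 66.4% for RBM6, 50.8% for RBM5, 54.8% for RBM4 and 68% for RBM4B. RefSeq windows were matched for 56 of the 61 members, with 74 starts. A GC box was in 58.1% of these and in 42.6% of all 35116 starts in the table, a CCAAT box in 50% and 32%, an ETS site in 14.9% and 8.52%, an E-box in 12.2% and 6.34%, and a TATA box in 10.8% and 10.7%. Median GC content was 63.6% for members and 58% for all starts, and these shares are descriptions that move with base composition. Among the 42 starts of members that fell with FK228, 59.5% held a GC box and 50% a CCAAT box.

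RBM18 rose with all 3 inhibitors. It read 8.84 and 8.87 with vehicle, 9.37 and 9.44 with largazole, 9.52 and 9.45 with SAHA, and 9.54 and 9.42 with FK228. The 6 treated arrays formed a block above vehicle with overlapping groups inside it. Rises were 0.55, 0.63 and 0.63, or 1.47-fold, 1.55-fold and 1.54-fold (adjusted p 0.00144, 6.49e-04 and 5.23e-04 by limma). RBM45, an RNA-binding protein found in neuronal inclusions, rose by 0.31, 0.37 and 0.38. Its calls ended without vehicle replicate 1 (0.25, 0.31 and 0.33 with adjusted p 0.12, 0.0625 and 0.0502 by limma), and that for largazole also without largazole replicate 1 (0.116) or 2 (0.0725).

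RBM38, a p53 target that stabilises the mRNA of the cell cycle inhibitor p21, rose with the depsipeptides. Its arrays read 7.49 and 7.62 with vehicle, 7.89 and 7.91 with largazole, 7.50 and 7.57 with SAHA, and 8.19 and 8.25 with FK228. The SAHA arrays lay inside the vehicle range. Differences were 0.35 (adjusted p 0.013 by limma), -0.01 (0.91) and 0.67 (3.98e-04), and the difference of SAHA from the depsipeptides was not tested because doses differ. Without largazole replicate 1, largazole replicate 2 or vehicle replicate 1, the largazole call ended (0.0608, 0.0696 and 0.0814).

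RBM20, a splicing factor of titin in heart muscle, sat nearest the threshold. It read 4.91 and 4.43 with vehicle, 5.12 and 5.18 with largazole, 4.95 and 4.97 with SAHA, and 4.58 and 4.53 with FK228. Only the largazole difference passed (0.48, adjusted p 0.0299 by limma). That call ended without largazole replicate 1 (0.0844), largazole replicate 2 (0.125) or vehicle replicate 2, where the difference was 0.24 (0.122). RBM42 rose with FK228 alone among the calls (0.43, adjusted p 0.00801 by limma), against 0.21 with each other compound (0.135 and 0.129).

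The remaining RBM members that fell were RBM7, RBM33, RBM24, RBM48 and RBM15B. RBM7, a subunit of the nuclear exosome targeting complex, fell by 0.55, 0.55 and 0.78 on the log2 scale. RBM33 fell with SAHA (-0.32) and FK228 (-0.68), and RBM24, a muscle splicing factor, with FK228 (-0.61). RBM48, of the minor spliceosome, was called at -0.69 with FK228. That call ended without either FK228 array or vehicle replicate 1 (adjusted p 0.0606, 0.0796 and 0.138 by limma). RBM15B, a partner of the m6A methyltransferase, fell by 0.27 with SAHA and 0.29 with FK228. The RBM15B calls ended without any 1 of the 4 arrays compared (adjusted p 0.0953 to 0.146 and 0.0581 to 0.128 by limma). RBM27 and RBM33 lost their SAHA calls in the same way (0.0506 to 0.107 and 0.073 to 0.126), and RBM27 its largazole call without largazole replicate 2 (0.0593).

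RBM3, a cold-inducible protein, was not called with any compound. It read 10.95 and 10.68 with vehicle, 11.03 and 10.60 with largazole, 10.99 and 10.59 with SAHA, and 10.60 and 10.30 with FK228. Replicate 1 was the higher array in all 4 groups, by 0.27 to 0.43, so the interval for FK228 ran from -0.82 to 0.09. RBM8A (Y14), a core subunit of the exon junction complex, was also uncalled (-0.23, -0.18 and -0.08), as were the spliceosome subunits RBM17, RBM22 and RBM25. RBM12, RBM14, RBM15, RBM19 and RBM28 complete the members not called with any inhibitor through the probe set that stands for the gene.

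Other probe sets of the same genes were counted as a check on the choice of probe set. Of the 61 members, 49 had more than 1 tested probe set, which gave 114 further ones. With largazole 61 of these were called lower and 2 higher, with SAHA 61 and 2, and with FK228 63 and 5. Among all tested genes, with 1 probe set each, the shares were 23.2% and 21.9%, 25.2% and 22.1%, and 27.1% and 25.7%. The medians of the further probe sets were -0.37, -0.33 and -0.36. All tested probe sets of a gene had the same sign in 34, 36 and 34 of the 49. Calls in both directions occurred for RBM8A with FK228 alone, where 2 probe sets rose (0.52 and 0.35) and 1 fell (-0.45).

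Several members were uncalled through the probe set that stands for them while another fell. SRSF11 had a probe set at -1.16, -1.49 and -1.41 with largazole, SAHA and FK228, and 2 of its 3 were called lower with each. RBM15, a subunit of the m6A writer complex, had 1 at -1.16, -0.77 and -1.61, and 1 of its 6 was called lower with each. RBM25 had 1 at -0.73, -0.93 and -1.06, and 3, 2 and 2 of its 6 were called lower. These 3 genes therefore count as uncalled above although part of their signal fell, and whether the probe sets report different transcript forms was not tested. Among further uncalled members, RBM17 and RBM8A each had a probe set called lower with all 3 compounds. RBM19 had a probe set called lower with SAHA (-0.58) and FK228 (-0.37), and RBM3 and RBM22 each had 1 with SAHA. HNRNPH1, HNRNPM, RBM12 and RBM28 each had 1 with largazole. In the other direction, RBM14 had a probe set called higher with FK228 (0.58), and HNRNPLL had 1 with largazole and 1 with SAHA.

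Leaving out probe sets with the suffixes _x_at and _s_at changed the values of further members. SRSF3 was then no longer called with largazole (-0.05, adjusted p 0.839 by limma) or FK228 (-0.32, 0.131), while its SAHA difference was -0.61. RBM48 lost its FK228 call (-0.26, adjusted p 0.0794 by limma). Larger falls appeared for SRSF1 (-0.95, -0.71 and -0.84 with largazole, SAHA and FK228), SRSF8 with FK228 (-2.05) and SRSF10 with FK228 (-0.87). The same held with largazole for SRSF7 (-0.79), HNRNPDL (-0.86) and RBM26 (-0.88), and with SAHA for HNRNPA1 (-0.97).

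Averaging all probe sets of a gene also moved some values by over 1.5 times while the call stayed. Falls became smaller for RBM47 (-0.89) and RBM48 (-0.32) with FK228, for RBM41 with SAHA (-0.54) and for RBM7 with largazole (-0.30). The rise of RBM18 became 0.36 with largazole and 0.42 with SAHA. Falls became larger for HNRNPU with largazole (-0.55) and FK228 (-0.53), RBM39 with largazole (-0.79), and HNRNPA1 (-0.93) and SRSF1 (-0.73) with SAHA. SRSF3 with FK228 (-0.22, adjusted p 0.0525 by limma) and RBM15B with SAHA (-0.25, 0.0807) were no longer called.

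A fit with the replicate number as a block kept every member call and added 18, all with the same differences as above. With largazole these were SRSF10, HNRNPA3 and RBM8A (lower) and RBM14 and RBM15 (higher), with adjusted p from 0.028 to 0.0482 by limma. With SAHA they were HNRNPA0, RBM22 and RBM48, all lower (0.0327 to 0.0433). With FK228 they were SRSF6, SRSF7, SRSF11, HNRNPA2B1 and RBM3, all lower (0.00656 to 0.0438). Against largazole, FK228 was then lower for SRSF11, HNRNPH1, RBM3 and RBM26 and higher for RBM38 (0.019 to 0.0356).

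**Figure D3:**
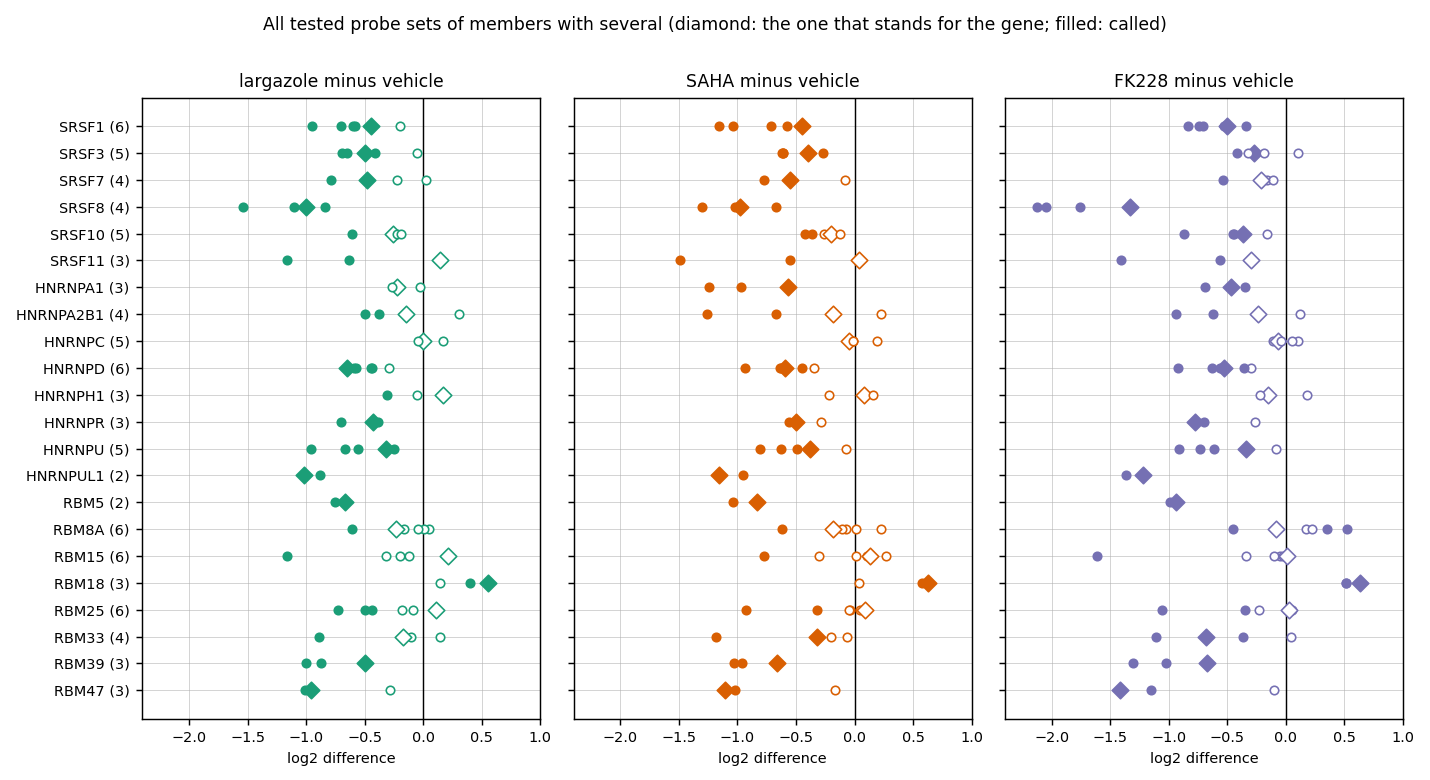
Every tested probe set of selected members (rows, number of probe sets in brackets) as the log2 difference from vehicle for largazole, SAHA and FK228; diamonds are the probe sets that stand for the gene and filled symbols are called. SRSF8, RBM5 and RBM39 have all symbols filled left of 0, while RBM8A with FK228 has filled symbols from -0.45 to 0.52.

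FK228 and largazole were compared directly at 20 nM. FK228 was lower than largazole for 10 of 61 members and higher for 0, against 4.88% lower and 4.19% higher among all tested genes. At an unadjusted p under 0.05 by limma, 22 members were lower and 3 higher, against 14.2% and 12.8% of all tested genes. Of the 10, 8 were RBM genes: RBM43, RBM12B, RBM23, RBM4, RBM20, RBM24, RBM33 and RBM47. SRSF4 and HNRNPR were the others. Without FK228 replicate 1, FK228 replicate 2 or largazole replicate 2 the count was 0, and without largazole replicate 1 it was 1, so each of these calls but that of RBM43 ended with any of those arrays removed, and that of RBM43 with 3 of them. The calls of HNRNPR and RBM20 also ended without either SAHA array (adjusted p 0.0668 and 0.0685 by limma), and those of HNRNPR and RBM24 without either vehicle array (0.0601 and 0.0584), although these arrays enter only the shared spread. The median difference was -0.12 over members and -0.00 over all genes. Over the 114 other tested probe sets of members it was also -0.00, with 11 called lower and 4 higher. The members' shift thus did not appear in the median of those probe sets. All tested probe sets of a gene had the same sign in 20 of 49 members.

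The sizes were modest. RBM43 was 1.85-fold lower with FK228 than with largazole (-0.89, 95% interval -1.31 to -0.47, adjusted p 0.0283 by limma), with both levels below the threshold. RBM12B differed by -0.73 (-1.09 to -0.38), RBM23 by -0.62 (-0.91 to -0.33) and RBM4 by -0.62 (-0.86 to -0.38). For RBM4 and RBM20 (-0.60), FK228 arrays were near vehicle and largazole arrays above it, whereas for the others both FK228 arrays lay below the vehicle and the largazole arrays. SRSF4 was 1.39-fold lower with FK228 (-0.48, adjusted p 0.0175) and RBM47 1.38-fold lower (-0.46, 0.0165). RBM33 and RBM24 both differed by -0.51. When a gene's probe sets were averaged, the calls of SRSF4 (-0.24, adjusted p 0.102 by limma), RBM47 (-0.14, 0.276), RBM33 (-0.28, 0.0691) and HNRNPR (-0.07, 0.546) ended. HNRNPR differed by -0.34 (adjusted p 0.048 by limma), but by 0.13 (0.476) without probe sets named _x_at or _s_at.

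In the opposite direction the largest values were RBM38 at 0.32 (95% interval 0.12 to 0.52, adjusted p 0.062 by limma), SRSF7 at 0.27 (0.141) and SRSF3 at 0.23 (0.123). Of the other probe sets of members, 4 were called higher with FK228 and 11 lower. The higher ones belonged to SRSF3 (0.51, adjusted p 0.0164 by limma), RBM8A, HNRNPH1 and HNRNPDL. The highest differences of the last 3 genes were 0.68, 0.49 and 0.47. For 40 of the 61 members the 95% interval of the difference lay within 0.5 log2 units of 0 on both sides, which bounds the difference there but does not show that the compounds act alike. Counted by arrays alone, both FK228 arrays lay below both largazole arrays for 36 members and above for 13, against 29.4% and 29% of all tested genes. The hnRNP genes gave 12 below and 3 above of 19, the RBM genes 22 and 6 of 33, and the SR protein genes 2 and 4 of 9.

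**Figure D4:**
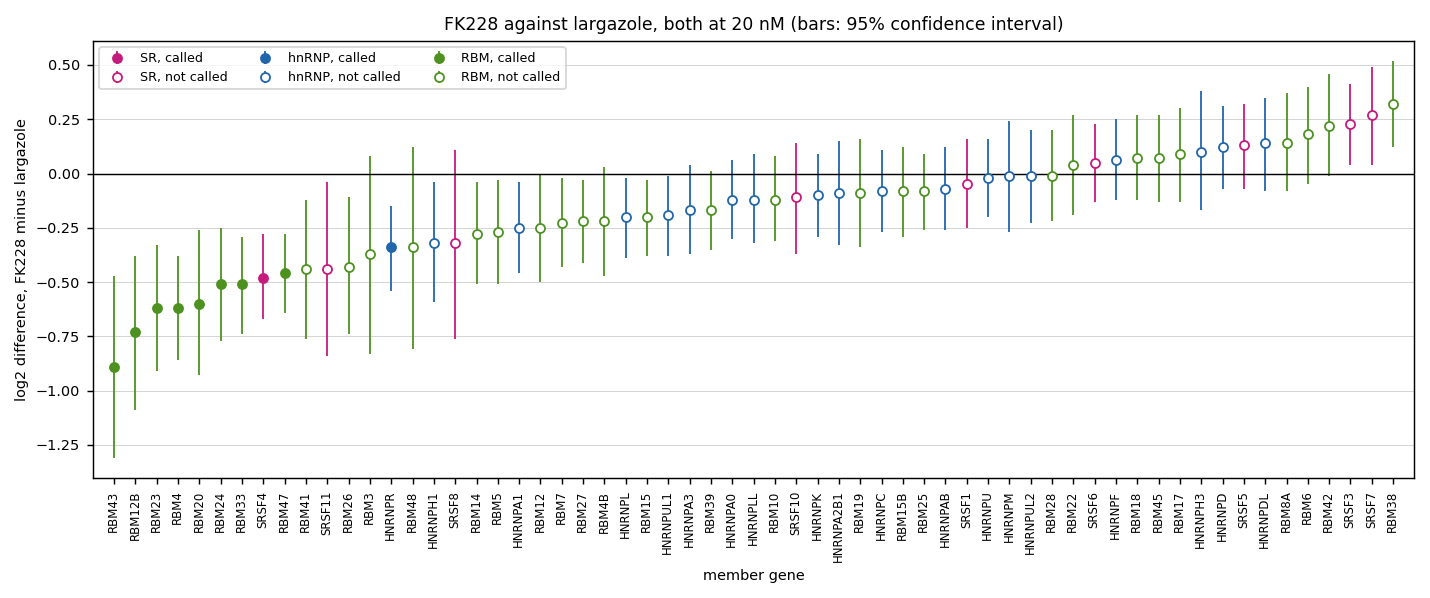
FK228 minus largazole (y axis, log2, both at 20 nM) for the 61 members in order of size, with 95% confidence intervals from limma; colours mark the family and filled points are called. The 10 filled points run from -0.89 (RBM43) to -0.34 (HNRNPR), and no point lies above 0.32 (RBM38).

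The wider set of splicing regulators was described from lists. Of 18 SR-related splicing activators, 7 fell with largazole, 8 with SAHA and 10 with FK228, while 1, 1 and 2 rose. The falls were 38.9%, 44.4% and 55.6% of the list, against 23.2%, 25.2% and 27.1% of all tested genes. The rises were 5.56%, 5.56% and 11.1%, against 21.9%, 22.1% and 25.7%. SREK1, which resembles the SR proteins, fell by 0.72, 0.96 and 1.31 on the log2 scale and was lower with FK228 than with largazole (-0.59, adjusted p 0.0139 by limma). SCAF11 fell by 0.72, 0.67 and 1.17, and ACIN1, a component of an exon junction-associated complex, by 0.81, 0.99 and 0.78. LUC7L, a relative of a U1 snRNP protein, rose by 0.52, 0.34 and 0.54.

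The kinases, phosphatases and importer that act on SR proteins went both ways. Of 11 tested, 1, 2 and 3 fell with largazole, SAHA and FK228, and 1, 2 and 2 rose, with medians of 0.10, 0.05 and 0.05. The falls were 9.09%, 18.2% and 27.3%, against 23.2%, 25.2% and 27.1% of all tested genes. The rises were 9.09%, 18.2% and 18.2%, against 21.9%, 22.1% and 25.7%. SRPK2, a cytoplasmic SR protein kinase, rose by 0.54, 0.60 and 0.87. DYRK1A, a nuclear kinase of splicing factors, fell by 0.93, 0.84 and 1.34 on the log2 scale. CLK1, a kinase that releases SR proteins from nuclear speckles, read -0.24 (adjusted p 0.122 by limma), -0.33 (0.0419) and -0.69 (0.00134). CLK1 and DYRK1A were also lower with FK228 than with largazole (-0.44 and -0.40, adjusted p 0.0499 and 0.0272 by limma).

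Among 35 other hnRNP-type and RNA-binding splicing regulators, 16, 17 and 17 fell and 3, 4 and 3 rose. The falls were 45.7%, 48.6% and 48.6%, against 23.2%, 25.2% and 27.1% of all tested genes. The rises were 8.57%, 11.4% and 8.57%, against 21.9%, 22.1% and 25.7%. PTBP2, the neuronal polypyrimidine tract binding protein, fell by 0.67, 0.90 and 1.43 on the log2 scale and was lower with FK228 than with largazole (-0.76, adjusted p 0.0372 by limma). FUBP1 fell by 0.99, 0.86 and 1.02, MATR3 by 0.80, 1.09 and 1.01, TIA1 by 0.89, 0.95 and 1.38, and MBNL2 by 0.93, 0.72 and 1.26. Those that rose included KHDRBS3 (0.43, 0.54 and 0.50) and RALY, an hnRNP C relative (0.41, 0.37 and 0.46). The list's medians were -0.21, -0.21 and -0.18.

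**Figure D5:**
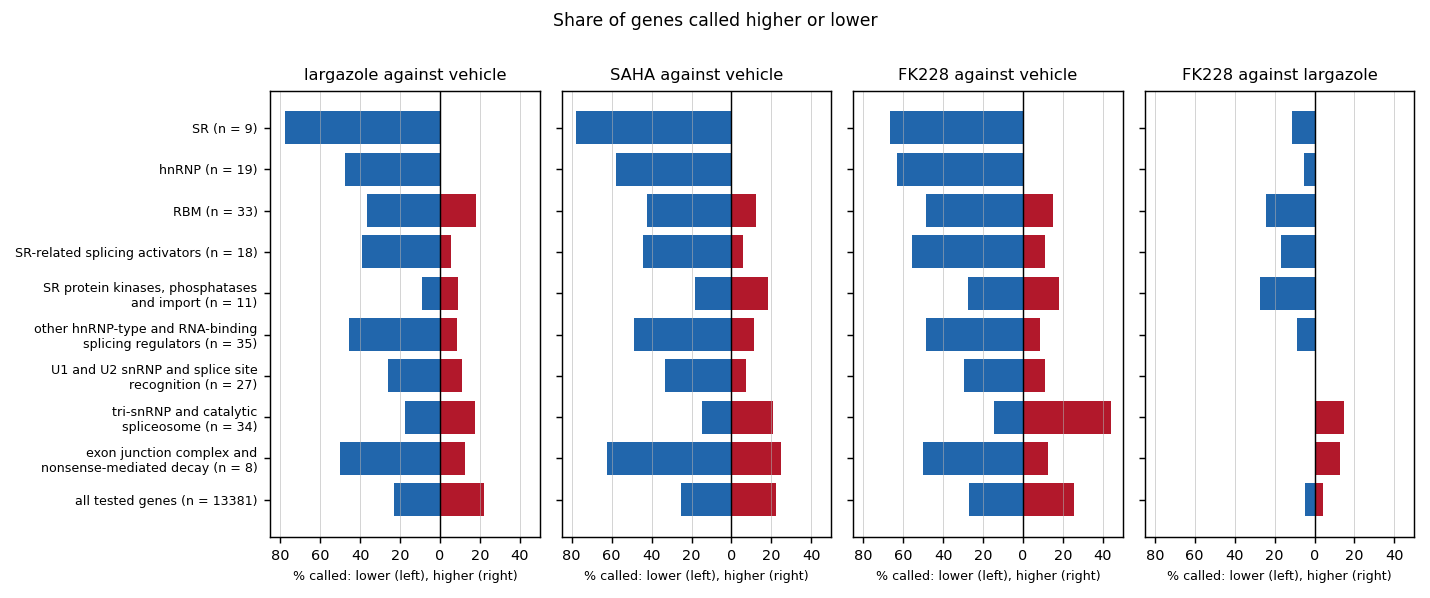
Share of genes called lower (blue, to the left) or higher (red, to the right) in each family and list, and among all tested genes, for the 4 comparisons (x axis, percent of the genes tested). The SR protein genes reach 77.8% lower with largazole and SAHA and 66.7% with FK228 with none higher, while the tri-snRNP list has 44.1% higher with FK228.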

How the data were processed

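Gene expression was measured on 8 Affymetrix arrays, 2 for each of vehicle, largazole, SAHA and FK228. The deposited values are log2 probe set levels. Per the submitters' processing notes the tools were affy, RMA and limma; the way the authors combined them, and their versions, were not stated. The platform's annotation gives 1 symbol for 41091 of 54613 probe sets, several for 1801 and none for 11721. All 61 members matched RefSeq (GRCh38.p14) by gene ID, and 0 symbols changed.

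Probe sets were tested when their second-highest value reached 4.49, which left 28985. A linear model of all 8 arrays with a mean for each group was fitted by limma 3.58.1 (R 4.3.3), and eBayes pooled the spread (residual df 4, prior df 3.69). In each comparison p-values were adjusted by Benjamini-Hochberg over these probe sets. The number of arrays limits precision: the 95% interval of a member had a median half-width of 0.21. With 2 arrays a group, the smallest two-sided p of an exact permutation test is 0.333, and none was run. The fit was tested on simulated data. Figures were drawn in matplotlib 3.10.9.

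The members, lists and tests were chosen with earlier results of these data known. Named members are the 5 largest called rises and falls per compound without overlap with vehicle, up to 4 for each direction of FK228 against largazole, and a fixed panel of 22 genes; other members are named to account for all. Lists name up to 2 highest and 2 lowest called genes per compound. Alternatives were no filter, a filter at 6.87, an intensity trend with robust prior, a replicate block, array weights, equal ribosomal protein medians, further quantile normalization, no _x_at or _s_at probe sets, the mean of all probe sets, only the 4 arrays compared, and each array left out. Probe sets with several symbols were left out.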

Additional observations from a re-analysis of the deposited data

How the results depend on the processing

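The counts of falling members and the medians against vehicle kept their direction in every alternative run. No call of a named member against vehicle turned its direction where it could still be measured. Leaving out each array in turn gave 24 to 28 falls with largazole, 27 to 32 with SAHA and 29 to 34 with FK228, with medians of -0.27 to -0.22, -0.33 to -0.25 and -0.41 to -0.32. The counts of rises were less firm: 2 to 6 with largazole, 2 to 4 with SAHA and 4 to 5 with FK228 on leaving out an array, and 3 and 2 with largazole and SAHA when no filter was used. The mean of all probe sets moved the SAHA median to -0.40. For FK228 against largazole the count of lower members ranged from 0 to 8 on leaving out an array (medians -0.16 to -0.12), and was 2 with no filter and 5 with only the 4 arrays compared. The count of higher members, 0 as reported, was 0 on leaving out any array, 1 with equal ribosomal protein medians, 1 without _x_at and _s_at probe sets, 2 with the mean of all probe sets, 2 with the stricter filter and 3 with the trend and robust prior. HNRNPR turned to 0.13 in this comparison without _x_at and _s_at probe sets. The causes were not tested. Of 119 member calls over the 4 comparisons, no filter lost 23. Without _x_at and _s_at probe sets 28 of the 119 could not be measured, so that alternative says nothing about them. They include all calls of RBM23, RBM47, RBM10, RBM4B, HNRNPF, HNRNPH3, SRSF5 and SRSF6. With the stricter filter 7 could not be measured, which were those of RBM43, RBM20 and RBM48.

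The labels do not say whether equal replicate numbers mark a shared batch, and with 2 arrays per group the data do not settle it. Deviations of same-numbered arrays correlated at 0.128 to 0.268 over the 6 pairs of groups, and replicate 1 was the higher array in all 4 groups for 15 members and the lower for 11. With a replicate block 0 of 119 calls were lost and 18 were gained, and 1 member was higher with FK228 than with largazole.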

Other observations

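The core splicing machinery, which carries out the reaction that SR and hnRNP proteins steer, was described from 2 further lists. Of 34 tri-snRNP and catalytic spliceosome genes, 6 rose and 6 fell with largazole, 7 rose and 5 fell with SAHA, and 15 rose and 5 fell with FK228. These are 17.6% and 17.6%, 20.6% and 14.7%, and 44.1% and 14.7% of the list, against 21.9% and 23.2%, 22.1% and 25.2%, and 25.7% and 27.1% of all tested genes. Of the list, 5 genes (14.7%) were higher with FK228 than with largazole and 0 lower, against 4.19% and 4.88% of all tested genes. PRPF18, a factor of the second splicing step, read 8.85 and 8.87 with vehicle, 9.86 and 9.77 with largazole, 9.98 and 9.99 with SAHA, and 10.15 and 10.19 with FK228. It rose by 0.95, 1.12 and 1.30, and BUD31 by 0.77, 0.88 and 1.08, while the helicase DDX23 fell by 0.63, 0.85 and 0.63 on the log2 scale. Of 27 genes for U1 and U2 snRNPs and splice site recognition, 7, 9 and 8 fell and 3, 2 and 3 rose. The falls were 25.9%, 33.3% and 29.6%, against 23.2%, 25.2% and 27.1% of all tested genes. The rises were 11.1%, 7.41% and 11.1%, against 21.9%, 22.1% and 25.7%. U2AF2, which binds the polypyrimidine tract, fell by 0.56, 0.80 and 0.75, and SF3B3 by 0.60, 0.76 and 0.70, while SF3B5 rose by 0.46, 0.47 and 0.54.

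The exon junction complex and nonsense-mediated decay list had 8 tested genes, of which 4, 5 and 4 fell and 1, 2 and 1 rose. The falls were 50%, 62.5% and 50%, against 23.2%, 25.2% and 27.1% of all tested genes. The rises were 12.5%, 25% and 12.5%, against 21.9%, 22.1% and 25.7%. EIF4A3, the helicase that anchors the junction complex and binds the member product RBM8A, read 11.75 and 11.84 with vehicle, 12.43 and 12.49 with largazole, 12.50 and 12.48 with SAHA, and 12.83 and 12.90 with FK228. It rose by 0.67, 0.70 and 1.07. MAGOHB, another junction complex gene, fell by 0.60, 0.46 and 0.88 on the log2 scale. The decay factors did not move as one: SMG5 (-0.70, -0.89 and -0.79) and SMG9 (-0.82, -0.89 and -0.97) fell, SMG6 rose with SAHA (0.36) and was uncalled with largazole and FK228 (0.20 and 0.18), and SMG8 was uncalled (-0.20, -0.22 and 0.07). The sets of members and lists were compared by counts alone, and no difference between lists was tested.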
